A study of Mus musculus with 8 samples.

Results

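The proteasome is the barrel-shaped protease that breaks down ubiquitin-tagged proteins in the cytosol and nucleus, and its genes were compared here between primitive erythroid precursors and epithelial cells of the mouse yolk sac. The members were all genes whose platform symbol begins with Psma, Psmb, Psmc, Psmd, Psme, Psmf or Psmg. They numbered 48 of 12393 genes that a probe set names singly, and they were read by 85 probe sets. A further probe set, annotated to Psme2 and Psme2b together, was not used to name a gene. Of the 48 genes, 18 encode subunits of the core, 17 subunits of the cap, 3 other activators, 1 an inhibitor and 7 assembly chaperones. The last 2, Psmc3ip and Psme3ip1, are named for proteins that bind a member and are not subunits.

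The data were 8 Affymetrix mouse expression arrays. There were 4 captures of erythroid and 4 of epithelial cells, with 1 array each, taken by laser from frozen sections of yolk sacs of FVB/N mice at embryonic day 9.5. Each pair of captures came from the same slides, and 2 to 4 yolk sacs from 2 litters were pooled for a replicate, so a replicate is a pool and not 1 animal. The mice carried no engineered allele and received no treatment that the labels name. The sections were 8 microns thick, an erythroid cell took 2 to 3 laser pulses and an epithelial cell 1, and RNA inputs of 10 to 39 ng went through 2 amplification cycles primed from the poly(A) tail.

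The core is a stack of 4 rings, with alpha subunits in the outer rings and beta subunits, some of them catalytic, in the inner ones. The cap binds tagged proteins, removes the ubiquitin, and unfolds and threads the chain through a ring of ATPases. Other activators open the core without ubiquitin. In red cell precursors the ubiquitin and proteasome system is known for clearing ribosomes, unpaired globin chains and other proteins during maturation, and in all cells it is part of housekeeping.

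The deposited values were intensities (MAS5 signal). Array medians ran from 81.5 to 127, and precision is limited by the small number of arrays. For the Gapdh control, the 3' probe set over the 5' one, which is larger for shorter RNA copies, gave 7.0 to 17.4 in pairs 3 and 4, against 38.7 to 44.4 in pairs 1 and 2, so values of the 2 sets of pairs are given beside results. Of 9 erythroid markers measured and tested, 6 rose and 0 fell in erythroid captures, where 6.02% of all genes tested rose and 8.90% fell. Of 10 markers of visceral endoderm, the yolk sac epithelium that takes up nutrients and makes serum proteins, 0 were higher and 8 lower. Mesenchyme and mesothelium markers were also higher, 8 of 12, with a summed signal of 41633 to 63071 in erythroid and 9194 to 36569.7 in epithelial captures. Of 6 megakaryocyte and platelet markers tested, Pf4, Clec1b and Rab27b were higher and 0 lower, with a summed signal over 7 markers of 5182 to 18926 in erythroid and 1733 to 2855 in epithelial captures, and of 5 endothelial markers Tek was higher and 0 lower, with Pecam1 and Tie1 above background on no array. The part that RNA of these other cells plays in the results below was not tested.

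The promoters of 4 members are printed because they belong to the members that passed the test, Psmb10 and Psme3, and to catalytic subunits that did not, Psmb5 and Psmb6. Each is the 250 bases before the gene's start in RefSeq, build GRCm38.p6, on the gene's strand. The start in that table may not be the one these cells use. Capitals mark matches to TGACNNNGC, the core of the antioxidant response element that the factors Nfe2l1 and Nfe2l2 bind with small Maf proteins, to CCAAT, the box bound by NF-Y, and to CGGAAG, a form of the site of ETS factors, on either strand. No marked matches overlap one another, and the Psmb10 window holds none.
Psmb10, chr8:105938393-105938642, minus strand: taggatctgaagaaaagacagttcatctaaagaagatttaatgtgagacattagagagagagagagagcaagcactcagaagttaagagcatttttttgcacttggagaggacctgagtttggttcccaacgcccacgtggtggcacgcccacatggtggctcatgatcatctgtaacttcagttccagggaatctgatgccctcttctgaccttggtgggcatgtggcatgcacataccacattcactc
Psme3, chr11:101315963-101316212, plus strand: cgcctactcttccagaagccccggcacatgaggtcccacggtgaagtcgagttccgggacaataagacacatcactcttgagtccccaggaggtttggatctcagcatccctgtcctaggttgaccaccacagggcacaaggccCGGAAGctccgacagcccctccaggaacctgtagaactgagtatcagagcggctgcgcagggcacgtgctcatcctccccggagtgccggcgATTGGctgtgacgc
Psmb5, chr14:54617996-54618245, minus strand: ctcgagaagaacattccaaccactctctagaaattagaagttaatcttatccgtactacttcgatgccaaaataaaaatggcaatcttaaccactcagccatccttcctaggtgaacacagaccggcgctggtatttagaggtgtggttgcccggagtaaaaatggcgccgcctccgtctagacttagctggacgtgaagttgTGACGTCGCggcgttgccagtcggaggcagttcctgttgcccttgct
Psmb6, chr11:70525107-70525356, plus strand: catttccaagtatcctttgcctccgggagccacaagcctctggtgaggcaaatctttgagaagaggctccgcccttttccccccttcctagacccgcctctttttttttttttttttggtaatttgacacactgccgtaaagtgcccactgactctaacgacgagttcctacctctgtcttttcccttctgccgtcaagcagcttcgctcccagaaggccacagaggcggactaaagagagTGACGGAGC

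Windows were found for 40 of the 48 members, and 8 motifs were counted in them and in those of all 27025 genes of the table. TGACNNNGC stood in 5 of 40 members (12.5%) and 11.5% of all genes, and CCAAT in 15 of 40 members (37.5%) and 37.5% of all genes. CGGAAG stood in 19 of 40 members (47.5%) and 15.3% of all genes, and GGGCGG, the box bound by Sp factors, in 22 of 40 members (55%) and 35.4% of all genes. Of the GATA-type motifs, TGATAA stood in 2 of 40 members (5%) and 9.21% of all genes, and AGATAA in 2 of 40 members (5%) and 11.4% of all genes. A pair of GAAA runs 2 bases apart, a form of the interferon-stimulated element, stood in 3 of 40 members (7.5%) and 3.46% of all genes. The letters TTC and GAA 3 bases apart, TTCNNNGAA, stood in 2 of 40 members (5%) and 8.13% of all genes. Psmb5 and Psmb6 hold the TGACNNNGC core, while Psme3 holds CCAAT, read on the other strand, and CGGAAG. These are matches of letters and describe the windows only.

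Few proteasome genes passed the test for a difference between the 2 kinds of cell. Of 45 members tested, 2 rose in erythroid cells (6.02% of all 7191 genes tested) and 0 fell (8.90% of all), by limma, with p-values adjusted by Benjamini-Hochberg across all tested probe sets. At an unadjusted p under 0.05, 6 members were higher, where 14.3% of all genes were, and 0 lower; in either direction 31.1% of all genes reached it. The genes that rose were Psmb10, a catalytic subunit of the immunoproteasome, and Psme3, an activator of the core in the nucleus. The 95% interval of the fit lay inside a 2-fold change in either direction for 38 of 45 members (84.4%), against 52.6% of all genes tested. Such an interval need not hold 0, as for Psmb1 (0.11 to 0.86) and Psmd12 (0.10 to 0.83). The 38 also include Psmb7, which went opposite ways in the 2 sets of pairs. The SE of the members had a median of 0.19 on the log2 scale, against 0.25 for all genes. A difference in signal per array cannot tell fewer cells of a type from less RNA per cell.

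**Figure D1:**
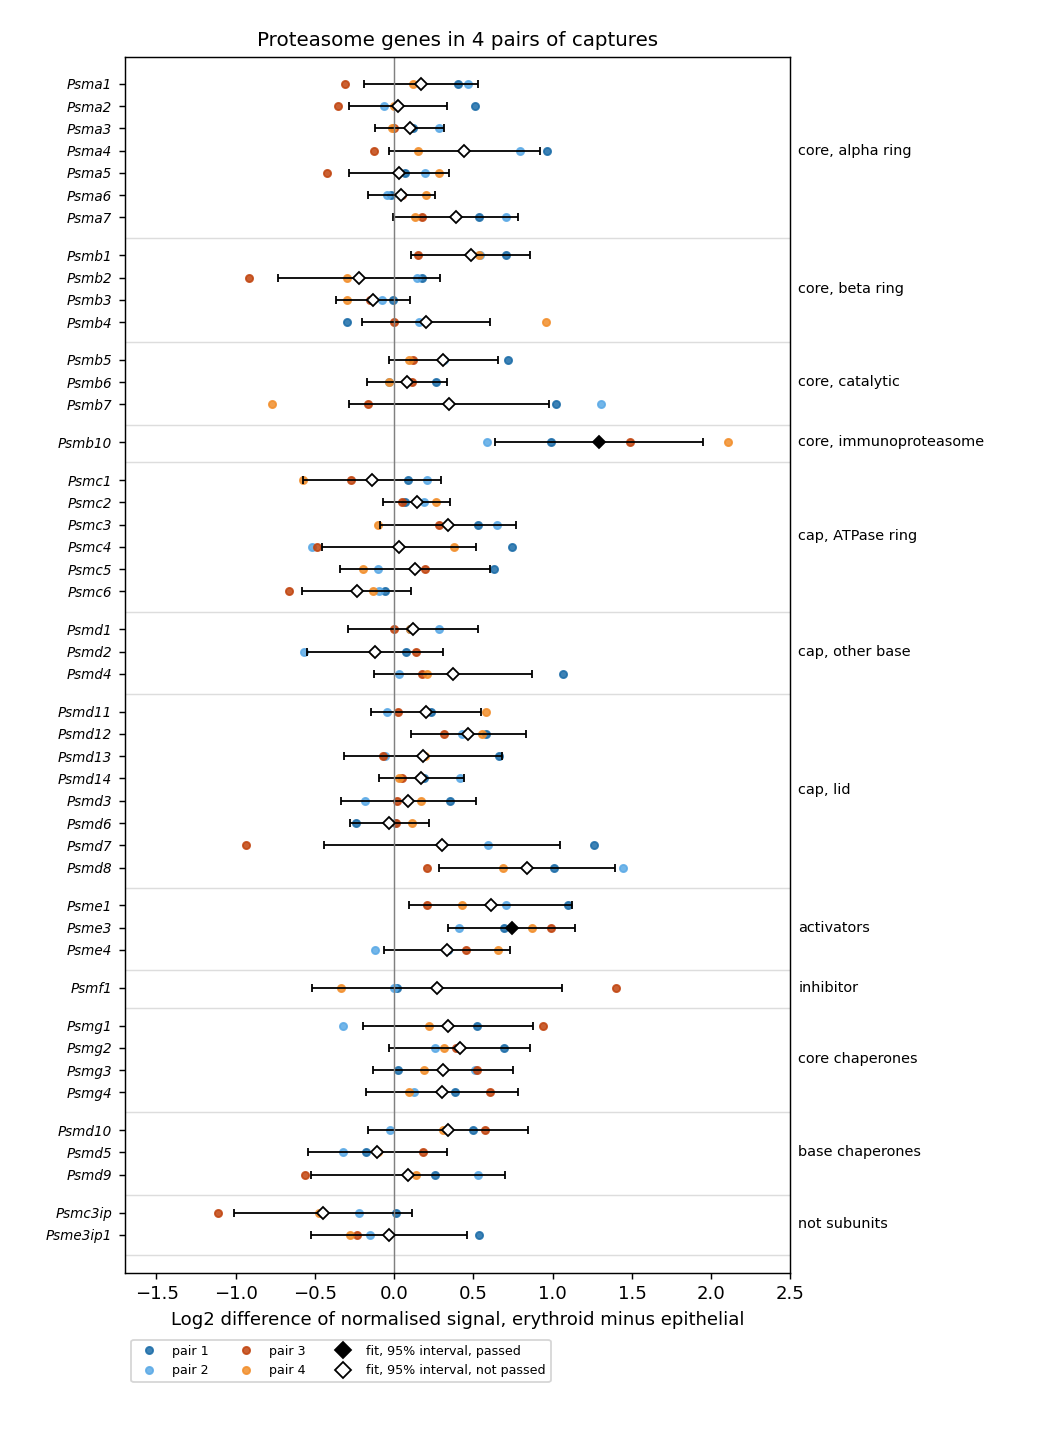
Log2 differences of normalised signal (erythroid minus epithelial, x axis) for the 45 tested proteasome genes, grouped by role. Circles are the 4 pairs, diamonds the limma fit with its 95% interval, filled where the adjusted p was under 0.05, as for Psmb10 and Psme3 alone.

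The family's median difference was 0.18 on the log2 scale, with a range of -0.45 to 1.29, against a median of -0.0056 for all genes; with each array centred on its median signal the sign of the family's median turned to -0.011, and that of all genes was -0.14. Relative to the median of all genes the family stood at 0.19 with quantile normalisation and at 0.13 with median centring. Values were above 0 for 36 of 45 members (80.0%), against 49.6% of all genes, and for 22 of 45 with median centring. Above the median of all genes lay 36 of 45 members with quantile normalisation and 34 with median centring. In all 4 pairs, 14 members (31.1%) had the higher value in the erythroid capture and 2 the lower, against 17.9% of all genes with the higher and 20.4% with the lower value. The sign against 0 depends on the scaling, and the shift between scalings was not the same for the family as for all genes.

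The alpha ring, which forms the gate of the core, had 7 of 8 genes tested, and 0 passed the test (0 at an unadjusted p under 0.05, against 31.1% of all genes). Read by the brightest probe set of each gene, their differences ran from 0.023 to 0.44. Psma6 was read at 0.045, and its less bright probe sets gave 0.45 ± 0.17 and -0.36 ± 0.27 (limma adjusted p = 0.103 and 0.405). The first of these had an unadjusted p of 0.0231. Psma2, with the smallest difference, had signals of 12309, 9076, 8349.8 and 8008 across erythroid pairs 1 to 4, against 8873, 8079, 10726 and 8029.9 in the epithelial captures. The groups overlap throughout, and the fit gave 0.023 ± 0.14 (SE, n = 4 pairs, limma adjusted p = 0.935), with a 95% interval of -0.29 to 0.33. Psma4 had the largest difference of the ring, 0.44 ± 0.21 (adjusted p = 0.197), from signals of 2353, 2151, 1577 and 1940.3 across erythroid pairs 1 to 4, against 1179, 1257, 1791 and 1829 in the epithelial captures. The erythroid values are higher in pairs 1 and 2 and close to the epithelial ones in pairs 3 and 4, and Psma4 passed in pairs 1 and 2 alone (difference 0.88, adjusted p = 0.00264). A fit on 2 pairs, here and below, takes its variance largely from all genes. Psma7 was higher in value in all 4 pairs, at 0.39 ± 0.18 (adjusted p = 0.175).

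The eighth alpha gene, Psma8, encodes the form that replaces Psma7 in the core of male germ cells. Its probe set was too dim for the test. The signals were 126, 99.7, 119 and 92.4 across erythroid pairs 1 to 4, against 25, 17, 38.5 and 57.5 in the epithelial captures. The erythroid values all lie above the epithelial ones, and 3 of 4 erythroid and 1 of 4 epithelial arrays exceeded the background level. Fitted with no filter, the difference was 1.37 ± 0.55 (adjusted p = 0.194), which did not pass.

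Of the 4 beta subunits that are not catalytic, 0 passed, with differences of -0.22 to 0.48 and 1 of them at an unadjusted p under 0.05 (all genes, 31.1%). Psmb3, with the smallest difference, had signals of 10972, 10154, 10987 and 7872 across erythroid pairs 1 to 4, against 11967, 9141, 12008 and 9166 in the epithelial captures. The groups overlap, and the fit gave -0.13 ± 0.10 (adjusted p = 0.435). Psmb1 had signals of 2354, 2218, 2918 and 2189.5 across erythroid pairs 1 to 4, against 1424, 1532, 2762 and 1593 in the epithelial captures. The epithelial value of pair 3 stands apart from the other epithelial ones, the erythroid capture is the higher in each pair, and the fit gave 0.48 ± 0.17 (adjusted p = 0.0844). Psmb1 was called in pairs 1 and 2 alone, at 0.62 (adjusted p = 0.0495). Over all pairs its less bright probe sets gave 0.091 ± 0.28 and -0.62 ± 0.33 (adjusted p = 0.861 and 0.247). Psmb2 had signals of 665, 629, 801 and 1404 across erythroid pairs 1 to 4, against 542, 602, 1525 and 1748 in the epithelial captures. In pairs 3 and 4 its erythroid values are the lower, and the fit gave -0.22 ± 0.23 (adjusted p = 0.566). Psmb4 was at 0.20 ± 0.18 (adjusted p = 0.502), with -0.30 in pair 1 and 0.96 in pair 4.

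The constitutive catalytic subunits are Psmb5, Psmb6 and Psmb7, which cut after hydrophobic, acidic and basic residues in that order. Psmb5 had signals of 3780.3, 3550.2, 4418 and 4165 across erythroid pairs 1 to 4, against 2320.2, 2734, 4341 and 4189 in the epithelial captures. The values of pairs 3 and 4 are nearly equal in the 2 cell types, those of pairs 1 and 2 higher in the erythroid captures, and the fit gave 0.31 ± 0.16 (adjusted p = 0.214). Psmb6 had signals of 8743, 9214, 9063 and 6237 across erythroid pairs 1 to 4, against 7640.1, 8057, 8284 and 6472 in the epithelial captures. Pair 4 has the lowest values in both cell types, the groups overlap, and the fit gave 0.079 ± 0.11 (adjusted p = 0.691), with a 95% interval of -0.17 to 0.33.

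Psmb7 behaved differently in the 2 sets of pairs. Its signals were 3785, 8881, 11183 and 6550 across erythroid pairs 1 to 4, against 1849.9, 3178, 12267 and 9826 in the epithelial captures. In pairs 1 and 2 the erythroid capture was the higher, in pairs 3 and 4 the epithelial one, and the highest epithelial values are those of pairs 3 and 4. The mean difference was -0.47 for pairs 3 and 4, against 1.16 for pairs 1 and 2, and over all pairs the fit gave 0.35 ± 0.29 (adjusted p = 0.461). Psmb7 was called higher in pairs 1 and 2 alone (adjusted p = 7.67e-08) and lower in pairs 3 and 4 alone (adjusted p = 0.0175). Each of these 2 fits used 2 pairs only, so its p-value rests largely on variance shared across genes and little on the spread of Psmb7. The interaction of cell type with the set of pairs was -1.63 ± 0.25 (adjusted p = 0.00251), and Psmb7 was the 1 member of 45 that passed that test, against 2.00% of all genes. At an unadjusted p under 0.05 the interaction counted 3 members, against 13.6% of all genes. The Psmb7 interaction did not pass without the pair term (adjusted p = 0.206) or without a variance trend (0.379). The 3' to 5' ratios part the same sets of pairs, and their part in this was not tested.

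The immunoproteasome subunits Psmb8, Psmb9 and Psmb10 can take the places of Psmb5, Psmb6 and Psmb7, and are known for making peptides for antigen presentation and for induction by interferon. Psmb10, the counterpart of Psmb7, had signals of 292, 351, 448 and 457 across erythroid pairs 1 to 4, against 129, 265, 133 and 66.1 in the epithelial captures. The 4 erythroid values lie above all 4 epithelial ones, the closest being pair 2. With each gene read by its brightest tested probe set, Psmb10 was the only one of the 45 tested members whose groups did not overlap on the deposited scale. Of all genes, 13.7% did not overlap. The fit gave 1.29 ± 0.30 (SE, n = 4 pairs, limma adjusted p = 0.0172), with 1.80 for pairs 3 and 4, against 0.79 for pairs 1 and 2. The median difference of the mesenchyme markers was 0.14, 0.60, 1.94 and 2.59 in pairs 1 to 4, that of the erythroid markers 1.04, 1.16, 3.16 and 2.14, and the megakaryocyte markers had 0.92, 0.98, 2.72 and 1.61. These lists, like Psmb10, had the larger values in pairs 3 and 4. So did the endoderm markers in the other direction, at -0.91, -1.14, -1.86 and -1.48. Of all genes, 26.6% were called in pairs 3 and 4 alone, against 8.96% in pairs 1 and 2 alone. The Psmb10 interaction with the set of pairs was 1.01 ± 0.54 and did not pass (adjusted p = 0.447). The part of the marked cell types in the Psmb10 value was not tested. The Psmb10 call was lost when replicate 3 (adjusted p = 0.0671) or replicate 4 (0.116) was left out, in pairs 1 and 2 alone (0.254), without the pair term (0.0513) and without a variance trend (0.0573).

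The other immunoproteasome genes were not measurable here. Psmb8 had signals of 9.62, 5.94, 7.13 and 4.34 across erythroid pairs 1 to 4, against 4.05, 6.48, 2.78 and 6.32 in the epithelial captures. Psmb9 had signals of 28.5, 11.1, 148 and 10.4 across erythroid pairs 1 to 4, against 6.43, 12.1, 41.9 and 5.3 in the epithelial captures. Psmb8 was above the background level on 0 of 8 arrays and Psmb9 on 1, the erythroid array of pair 3, so no difference is given.

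Among genes of antigen presentation and interferon response, 8 of 13 measured were bright enough to test. Of these, 1 rose (6.02% of all genes) and 1 fell (8.90% of all), at a median of -0.24. H2-K1, a class I heavy chain, was higher by 1.07 ± 0.24 (adjusted p = 0.0161), and B2m, the light chain that all class I molecules share, fell by 0.89 ± 0.17 (adjusted p = 0.00726). Irf1, an interferon-induced factor that acts on immunoproteasome genes, was at -0.35 ± 0.25 (adjusted p = 0.402). Of 13 leukocyte and macrophage markers, of cells known for a high share of immunoproteasome, 5 were tested. Laptm5 rose by 1.55 (6.02% of all genes rose) and Fcgr3 fell by 1.23 (8.90% fell). Cd68, Cybb, Fcgr1 and Itgam were above background on no array. The summed signal of the 13 leukocyte markers was 1926 to 2974 in erythroid and 1422 to 1973 in epithelial captures. The part of leukocyte RNA in the Psmb10 value was not tested.

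**Figure D2:**
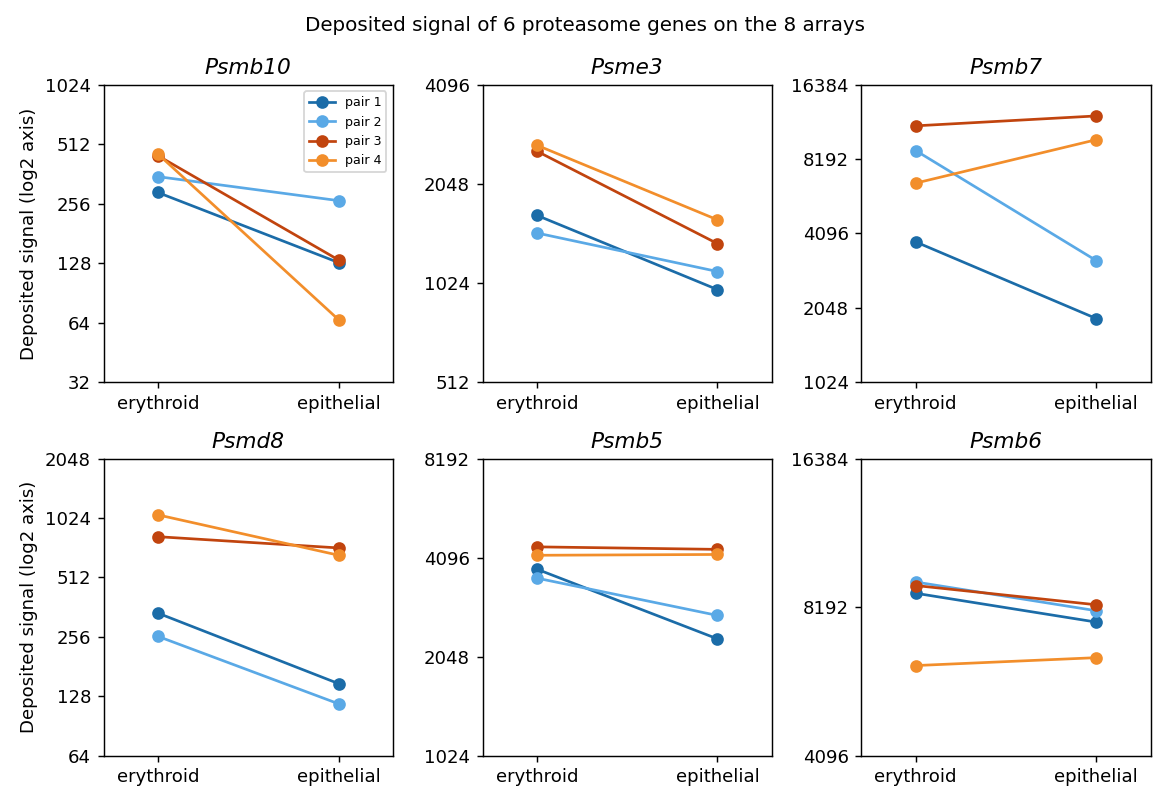
Deposited signal (y axis, log2 scale) of 6 proteasome genes in the erythroid and epithelial captures, 1 line for each of the 4 pairs. All lines of Psmb10 and Psme3 run higher on the erythroid side, while those of Psmb7 cross between pairs 1 and 2 and pairs 3 and 4.

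In the cap, 0 of 17 genes passed the test in either direction, and 2 were higher at an unadjusted p under 0.05 (all genes, 14.3%). The median difference was 0.14, and -0.052 with median centring. The 6 ATPases, Psmc1 to Psmc6, which unfold the substrate, ran from -0.24 to 0.34. Psmc4, with the smallest difference, had signals of 4765, 2856, 2034 and 4197 across erythroid pairs 1 to 4, against 2830.3, 4158, 2967 and 3538 in the epithelial captures. The erythroid capture was the higher in pairs 1 and 4 and the lower in pairs 2 and 3, and the fit gave 0.029 ± 0.22 (adjusted p = 0.95), with a 95% interval of -0.46 to 0.51. Psmc3 had the largest difference among the ATPases, 0.34 ± 0.19 (adjusted p = 0.274).

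Of the other base subunits, Psmd1 and Psmd2 are scaffolds, Psmd2 a dock for ubiquitin-like domains, and Psmd4 is a ubiquitin receptor. Psmd1 had signals of 679.5, 666, 1440.4 and 1849 across erythroid pairs 1 to 4, against 584, 579, 1493 and 1809 in the epithelial captures. In both cell types pairs 3 and 4 lie above pairs 1 and 2, the groups overlap, and the fit gave 0.12 ± 0.19 (adjusted p = 0.709). Psmd2 was at -0.12 ± 0.19 (adjusted p = 0.719) and Psmd4 at 0.37 ± 0.23 (adjusted p = 0.308), where Psmd4 had 1.07 in pair 1 and 0.031 to 0.21 in the other pairs.

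The lid removes ubiquitin through Psmd14, its metalloprotease, while the other 7 measured here include Psmd7, its partner, and frame subunits. Differences of the 8 genes ran from -0.031 to 0.84. Psmd6, with the smallest, had signals of 10563, 12695, 8510.4 and 5469 across erythroid pairs 1 to 4, against 13887, 10409.5, 8465 and 5451 in the epithelial captures. Pair 4 has the lowest value in both cell types, the groups overlap, and the fit gave -0.031 ± 0.11 (adjusted p = 0.886), with a 95% interval of -0.28 to 0.22. Psmd14 was at 0.17 ± 0.12 (adjusted p = 0.382). Psmd8, a frame subunit with the largest difference of the cap, had signals of 338, 258, 824 and 1063 across erythroid pairs 1 to 4, against 148, 117, 723 and 664 in the epithelial captures. Within each pair the erythroid capture is the higher, but the groups overlap because pairs 3 and 4 lie above pairs 1 and 2 in both cell types. The fit gave 0.84 ± 0.25 (adjusted p = 0.0507), just outside the threshold. Psmd8 passed with an offset of 32 (adjusted p = 0.049) and without replicate 3 (0.0485). It also passed where probe sets were averaged within genes before testing (0.0456). Psmd8 has only 1 probe set, so the averaging left its difference at 0.84 and only the adjusted p moved. Psmd12, another frame subunit, had signals of 1894, 1799.7, 2246 and 2833 across erythroid pairs 1 to 4, against 1237, 1363, 1869 and 2116 in the epithelial captures. The erythroid capture is the higher in each pair, the groups overlap, and the fit gave 0.47 ± 0.17 (adjusted p = 0.0844). Psmd7 had signals of 339, 294, 192 and 482 across erythroid pairs 1 to 4, against 125, 225, 338 and 367 in the epithelial captures. Pair 3 goes the other way from pairs 1, 2 and 4, and the fit gave 0.30 ± 0.34 (adjusted p = 0.595).

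The activators are Psme1, which forms an interferon-induced ring with Psme2, Psme3, which forms a ring of its own in the nucleus, and Psme4, known for degradation of acetylated histones. Their differences lay between 0.33 and 0.74, with a median of 0.61, and 0.44 with median centring. Psme3 had signals of 1644, 1453, 2577 and 2686 across erythroid pairs 1 to 4, against 977, 1109, 1349 and 1593 in the epithelial captures. Within each pair the erythroid capture is the higher, and across pairs the groups overlap. The fit gave 0.74 ± 0.18 (adjusted p = 0.0218), with 0.93 for pairs 3 and 4, against 0.55 for pairs 1 and 2. The interaction with the set of pairs was 0.38 ± 0.32 and did not pass (adjusted p = 0.666). The mesenchyme, erythroid and megakaryocyte markers differed more in pairs 3 and 4, as did the endoderm markers in the other direction. The part of these cell types in the Psme3 value was not tested. The Psme3 call ended with median centring (adjusted p = 0.145), without the pair term (0.149) and without a variance trend (0.0776). It also ended without replicate 1 (0.0513), without replicate 3 (0.0905), without replicate 4 (0.117) and in pairs 1 and 2 alone (0.152). A less bright probe set of Psme3 gave -0.18 ± 0.53 (adjusted p = 0.86), and the mean of both 0.28 (adjusted p = 0.548), so the rise of Psme3 rests on its brightest probe set.

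Psme4 had signals of 2038, 1775, 2142 and 3174 across erythroid pairs 1 to 4, against 1617, 1922, 1619 and 2257 in the epithelial captures. Pair 2 alone is lower on the erythroid side, and the fit gave 0.33 ± 0.18 (adjusted p = 0.252). The other tested probe set of Psme4 gave 0.56 ± 0.22 (adjusted p = 0.115), which did not pass either. Psme1 had signals of 499, 415, 579.8 and 543 across erythroid pairs 1 to 4, against 208, 283, 494 and 381 in the epithelial captures. The erythroid capture is the higher in each pair, the groups overlap, and the fit gave 0.61 ± 0.23 (adjusted p = 0.107), with 0.32 for pairs 3 and 4, against 0.90 for pairs 1 and 2.

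Psmf1, a protein that inhibits the core in the test tube, had signals of 141, 143, 307 and 212 across erythroid pairs 1 to 4, against 116, 165, 91 and 233 in the epithelial captures. Pair 3 differs far more than the others, the groups overlap, and the fit gave 0.27 ± 0.36 (adjusted p = 0.658). The other tested probe set of Psmf1 was higher in the erythroid capture of each pair, at 0.44 ± 0.30 (adjusted p = 0.367), and did not pass. Its signals, 171 to 221 in erythroid and 104 to 158 in epithelial captures, did not overlap. Of the 7 assembly chaperones 0 passed (0 at an unadjusted p under 0.05, against 31.1% of all genes), and their median was 0.31. Psmg1 to Psmg4, which pair up to build the alpha ring, lay between 0.30 and 0.41. Psmg4, with the smallest difference of the 4, had signals of 402, 326, 762 and 539 across erythroid pairs 1 to 4, against 277, 336, 500.1 and 489 in the epithelial captures. The erythroid capture is the higher in value in 3 pairs on the deposited scale and in 4 after normalisation, and the fit gave 0.30 ± 0.22 (adjusted p = 0.39). Psmd5, Psmd9 and Psmd10, which guide assembly of the ATPase ring, lay between -0.11 and 0.34. Psmd9, with the smallest difference, had signals of 192, 145, 349 and 343 across erythroid pairs 1 to 4, against 137, 119.8, 491 and 278 in the epithelial captures. The groups overlap, and the fit gave 0.088 ± 0.28 (adjusted p = 0.865). The binding proteins that are no subunits were at -0.45 ± 0.25 (adjusted p = 0.268) for Psmc3ip, a recombination factor, and -0.033 ± 0.22 (adjusted p = 0.942) for Psme3ip1, whose signals were 562, 556, 578 and 704 across erythroid pairs 1 to 4, against 348, 662, 668 and 852 in the epithelial captures. Neither passed the test.

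**Figure D3:**
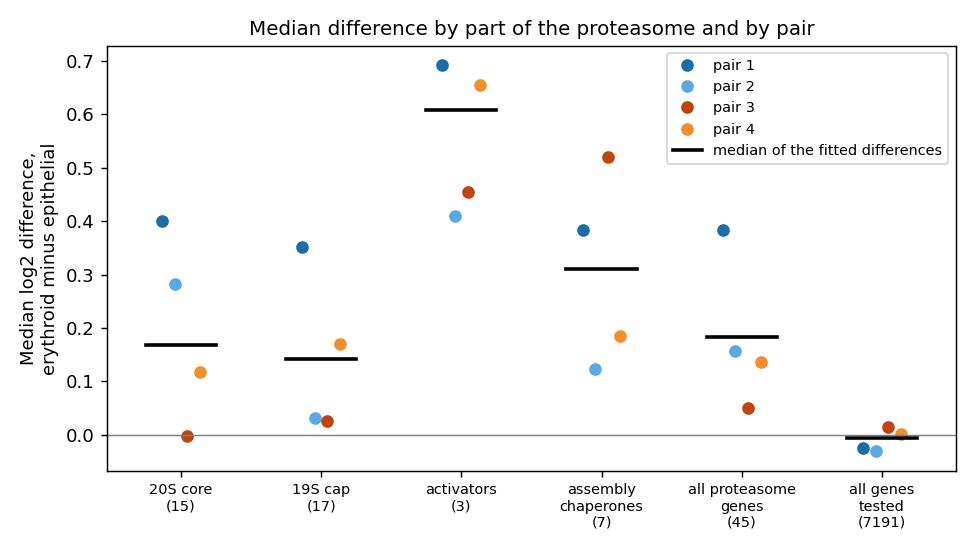
Median log2 difference (erythroid minus epithelial, y axis) of each part of the proteasome in each pair, with the number of genes under each name and the median of the fitted differences as a bar. By the median of the fitted differences the activators stand at 0.61, the assembly chaperones at 0.31, core and cap at 0.17 and 0.14, and all genes at -0.0056, while in pair 3 the assembly chaperones (0.52) lie above the activators (0.45). Median centring moves these medians down, and those of core and cap below 0.

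The pairs differed among themselves. The family's median was 0.38 in pair 1, 0.16 in pair 2, 0.050 in pair 3 and 0.14 in pair 4, while all genes lay between -0.031 and 0.014. The core was at 0.40 and 0.28 in pairs 1 and 2 and at -0.0018 and 0.12 in pairs 3 and 4. The fitted difference was smaller in pairs 3 and 4 for 29 of 45 members (64.4%), against 48.1% of all genes, and for 12 of 15 of the core. Members with the larger difference in pairs 3 and 4 included Psmb10 (interaction 1.01), Psmb4 (0.55), Psmf1 (0.52) and Psmg1 (0.48). The activators Psme4 (0.44) and Psme3 (0.38) were also among them, while the activator Psme1 went the other way (-0.58). Beside Psmb7 no interaction passed its test.

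Signals of many members differed between the sets of pairs in both cell types. On the deposited scale, all 4 arrays of pairs 3 and 4 lay above all 4 of pairs 1 and 2 for 14 of 45 members (11.5% of all genes tested), and below them for 3 (7.72% of all). In the cap this held for 9 and 2 of 17, in the core for 3 and 1 of 15. Psmc3, an ATPase, shows it, with signals of 997, 1162, 2360.4 and 2125 across erythroid pairs 1 to 4, against 647, 763, 2007 and 2375 in the epithelial captures. The 3' to 5' ratios move with these sets, and whether they account for the levels was not tested.

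Probe sets of 1 gene did not always give the same value. Of 18 members with several tested probe sets, 8 had values on both sides of 0, and in 5, Psma6, Psmb1, Psmc6, Psmd11 and Psme3, the values lay over 0.5 apart on the log2 scale. Of the 68 probe sets tested, 3 passed (13.9% of all probe sets tested), 1 each of Psmb10, Psme3 and Psmc6. The Psmc6 probe set that passed gave 0.59 ± 0.14 (adjusted p = 0.0192), from signals of 4175, 4270.2, 4423 and 3448 across erythroid pairs 1 to 4, against 2911, 2665, 3147 and 2519.8 in the epithelial captures. The erythroid values of this probe set lie above all epithelial ones. The slightly brighter probe set by which Psmc6 was read gave -0.24 ± 0.16 (adjusted p = 0.346), from signals of 4699.6, 4398, 2245 and 2681 across erythroid pairs 1 to 4, against 5245, 4519, 3705 and 3088 in the epithelial captures. The other probe set of Psmc6 gave -0.088 ± 0.31 (adjusted p = 0.881), so no direction is given for this ATPase.

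**Figure D4:**
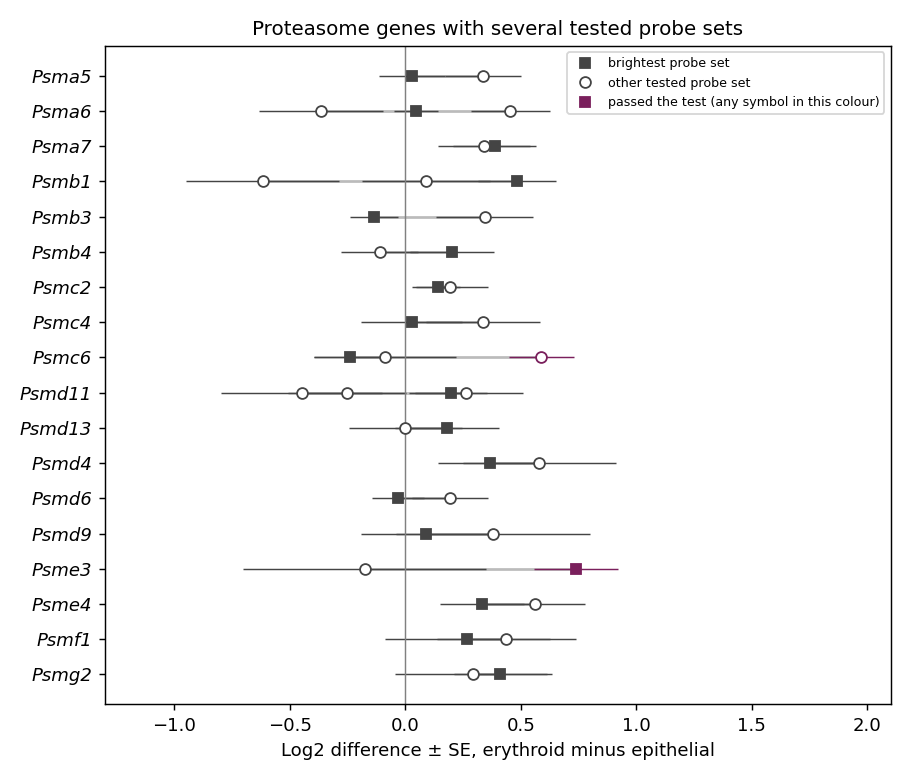
Log2 difference with its SE (erythroid minus epithelial, x axis) of each tested probe set of the 18 proteasome genes that have several. Squares are the brightest probe set of a gene and circles the others, coloured where the test was passed, which in Psmc6 and Psme3 holds for 1 probe set each.

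Genes that work with the proteasome were read from the same fit, in which 6.02% of all genes rose and 8.90% fell. The 9 bound factors of other names include Sem1 of the lid, the deubiquitinases Uchl5 and Usp14 and the assembly factor Pomp. Of these, 0 passed (1 at an unadjusted p under 0.05, against 31.1% of all genes), at a median of 0.14. Pomp, which guides core assembly, was at 0.15 ± 0.19 (adjusted p = 0.63). Of 9 ubiquitin shuttles and parts of the Vcp segregase, the shuttle Ubqln2 fell by 0.64 ± 0.14 (adjusted p = 0.0124) and 0 rose. Of 24 tested genes whose symbol begins with Ube2, most of them for ubiquitin-conjugating enzymes, Ube2d3 rose by 0.72 ± 0.16 (adjusted p = 0.0155). Of these 24, 0 fell, and their median was 0.10. Among 9 factors that act on proteasome genes in mammals, Nfyb, a subunit of NF-Y, rose by 0.73 ± 0.20 (adjusted p = 0.0364) and 0 fell. Nfe2l1, which restores proteasome genes when the protease is blocked, was at 0.24 ± 0.27, and Nfe2l2 at -0.23 ± 0.20 (adjusted p = 0.605 and 0.483).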

How the data were processed

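The authors deposited linear intensity values, 1 per probe set and array. GCOS, MAS5 and affy are named in the submitters' processing notes, with versions not given in the sources used here, and the trimmed mean was about 500 on each array. The 10th percentile of all values, 8.14, was added as an offset before log2. Array medians then spanned 0.59, above a limit of 0.5, so arrays were quantile normalised. Probe sets at or above the array median on at least 4 of 8 arrays were tested (11449 of 22690). limma 3.58.1 in R 4.3.3 fitted cell type and pair (lmFit, eBayes with trend, 3 residual degrees of freedom), with p-values two-sided and adjusted by Benjamini-Hochberg across the tested probe sets (threshold 0.05), and a second fit added the interaction with pairs 3 and 4. A gene was read from its brightest tested probe set. Background was the 95th percentile of 117 receptor, keratin-associated and defensin probe sets. Pairing comes from the labels' protocols, and deviations within pairs correlated at 0.44, 0.34, 0.31 and 0.54, at 0.28 to 0.35 between unmatched captures of the same set of pairs and at -0.45 to -0.29 between the sets, so they separate the sets more than the pairs. The procedure was tested on simulated data.

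The members and lists were chosen with earlier results of these data known. All members may be named, with all 8 values for the catalytic subunits and, in each class, the called members and that of smallest change; beyond that rule, all values of Psma4, Psma8, Psmb1, Psmb2, Psmc3, Psmd7, Psmd8, Psmd12, Psme1 and the Psmc6 probe sets were printed after they were seen. Ubiquitin genes and their activating enzymes were not analysed here. Alternatives changed scaling, offset, filter, moderation, probe sets, the pair term and the pairs used.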

Additional observations from a re-analysis of the deposited data

Results flagged for a closer look

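On the epithelial array of pair 3, Psmb1, a beta subunit of the core, had a signal of 2762, against 1424 to 1593 on the other 3 epithelial arrays. The gap was 0.873 of the group's range on the normalised log2 scale, above Dixon's 95% critical value for 4 samples. Of 90 groups of 4 looked at, this was the 1 found, and chance alone gives about 1 in 20. The difference of Psmb7 between cell types stood at -1.63 on the log2 scale in pairs 3 and 4 relative to pairs 1 and 2, a tested interaction with the values given above.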

How the results depend on the processing

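The count of members higher was 2 and of members lower 0 with limma, and leaving out 1 pair at a time gave 0 to 2 higher and 0 lower. It was 0 higher without the pair term (replicate block), with 3 at an unadjusted p under 0.05, 0 without a variance trend (6 unadjusted), 1 with median centring and 1, Psme3, when the array median had to be reached on all 8 arrays, where Psmb10 was not tested. With an offset of 32 it was 3. In pairs 1 and 2 alone it was also 3, Psma4, Psmb1 and Psmb7 (Psmb7 at 1.16, adjusted p = 7.67e-08), and neither Psmb10 nor Psme3 was called. In pairs 3 and 4 alone Psmb10 and Psme3 were higher and 1 member, Psmb7, lower, at -0.47 (adjusted p = 0.0175), a sign opposite to that over all pairs. The interaction was called for 0 members without the pair term and without a variance trend, and for 1 to 2 when a pair was left out (the other was Psmb4, without replicate 3). Median centring turned the family's median to -0.011, that of the core to -0.040 and that of the cap to -0.052, and moved that of the activators to 0.44; the mean of a gene's probe sets gave 0.45 for the activators. Leaving out a pair gave family medians of 0.13 to 0.21, core medians of 0.076 to 0.27, cap medians of 0.040 to 0.21 and activator medians of 0.45 to 0.67. Of 709 values of single members under the alternatives, 13 lost a call and 6 gained one with the same sign. A further 1, Psmb7 in pairs 3 and 4 alone, gained a call with the sign reversed. Another 60, in 25 genes, changed sign with no call on either side. Over all genes tested, 433 were higher and 640 lower, against 109 and 214 without the replicate block and 298 and 788 with median centring. The cause of these changes was not tested. Dim probe sets, as of Psmb8 and Psmb9, lie at the background level, which limits what can be said of them.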
